A study of Mus musculus with 11 samples.

Results

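The regulators described here are 10 genes of late spermatogenesis, *Crem*, *Fhl5*, *Kif17*, *Taf7l*, *Tbpl1*, *Rfx2*, *Sox30*, *Mybl1*, *Tcfl5* and *Gtf2a1l*. *Kif17* encodes a kinesin motor, and the others encode transcription factors and cofactors. The regulators were chosen by name, and all 10 of 10 were matched by Ensembl identifier among the 22259 genes of the count table. RNA was sequenced from whole testes of adult untreated mice, in 3 *Ccer1*+/+ (wild type) and 3 *Ccer1*-/- libraries, to ask which transcripts depend on CCER1, a nuclear protein of round and elongating spermatids. The *Ccer1*-/- mice were made with Cas9 and a pair of guides and carry frameshift deletions in the *Ccer1* coding sequence. Several such lines exist. The study's pathology used the line with the longest of these deletions, and no source used here says which line was sequenced. No label names litters or parents of the animals. A p value therefore weighs a genotype difference only against the spread between these libraries. In whole testis, fewer cells of a type and less RNA per cell cannot be told apart.

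Germ cells switch their transcription program more than once between meiosis and the spermatid. MYBL1 and TCFL5 act in pachytene spermatocytes, RFX2 and SOX30 are needed for spermatids to develop in mouse, and CREM then drives many spermatid genes, including those of the transition proteins (*Tnp1*, *Tnp2*) and protamines (*Prm1*, *Prm2*) that replace histones in the sperm nucleus. In mouse spermatids CREM is activated by the LIM-only protein FHL5, also called ACT, whose place in the cell is set by the kinesin KIF17. TBPL1, TAF7L and GTF2A1L are relatives of general factors that position RNA polymerase at promoters.

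Each library held 15970289 to 19621550 counts, and levels are given as CPM, in which counts are put on one library size by TMM factors. *Ccer1* itself was at 439 to 610 CPM in *Ccer1*+/+ and 82.1 to 93.0 CPM in *Ccer1*-/- libraries, so every library matched its label. The libraries did not separate by genotype alone. On the first principal component (51.7% of the variance) *Ccer1*+/+ replicates 2 and 3 scored 37.1 and 28.6, and the 4 remaining libraries scored -25.4 to -9.90. Replicate 3 of each genotype scored highest on the following component (30.2%). Every germ cell and somatic marker tested was detected in every library. The summed level of 6 macrophage markers was 9.67 and 9.47 CPM in replicate 3 of *Ccer1*+/+ and *Ccer1*-/-, and 33.7 to 40.2 CPM in the other libraries. That of 5 markers of the tubule wall was 33.49 CPM in replicate 3 of *Ccer1*+/+, 33.45 CPM in replicate 3 of *Ccer1*-/- and 84.9 to 136 CPM elsewhere. Sertoli markers also summed lowest in replicate 3 (994 CPM in *Ccer1*+/+ and 1033 CPM in *Ccer1*-/-, against 1278 to 1478 CPM). Other somatic lists were mixed. In *Ccer1*+/+, Leydig markers summed to 1011 CPM in replicate 3 and 860 CPM in replicate 1. Endothelial and blood markers summed to 64.9 and 62.3 CPM in these libraries. The level of each of the 10 regulators is therefore given in every library.

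None of the 10 regulators passed the genotype test. With edgeR's quasi-likelihood test over 15139 genes, 0 of 10 had an adjusted p under 0.05, where 0.00661% of all genes tested did (*Ccer1* alone). DESeq2 called 0 of the 10 as well, beside 0.033% of all genes. At an unadjusted p under 0.05, 2 of 10 passed, *Kif17* and *Rfx2*, both lower in *Ccer1*-/-, beside 2.89% of all genes, and 0 of 10 when a fold change over 1.5 was also required, beside 1.18%. Log2 fold changes, *Ccer1*-/- over *Ccer1*+/+ throughout, were positive for 7 regulators and negative for 3. Over all genes tested 8390 were positive and 6749 negative. The median was 0.11 for the regulators and 0.039 for all genes tested. The genotypes did not overlap for 1 of 10, *Kif17*, beside 8.34% of all genes, and 0 of 10 lay wholly higher in *Ccer1*-/-, beside 5.2%.

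**Figure D1:**
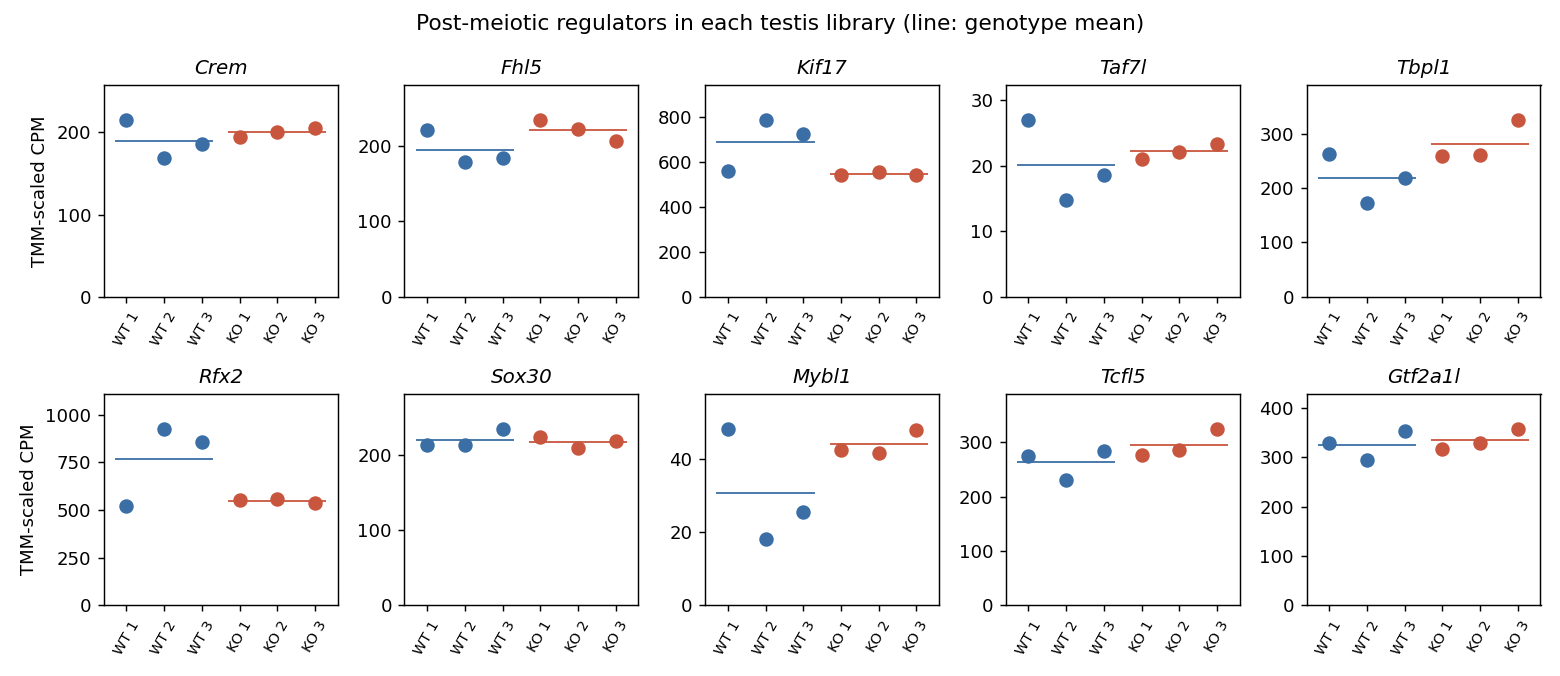
TMM-scaled CPM (vertical axis, from 0) of each regulator in the 3 *Ccer1*+/+ libraries (WT, blue) and the 3 *Ccer1*-/- libraries (KO, red), with a line at each genotype mean. *Rfx2* and *Kif17* are high, and *Mybl1*, *Tbpl1*, *Taf7l*, *Fhl5* and *Crem* low, in *Ccer1*+/+ replicates 2 and 3 (WT 2 and WT 3).

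The factors of meiotic prophase are taken first, each regulator with its identifier and position on GRCm38.p6. *Mybl1* (ENSMUSG00000025912, chr1:9667407-9700439), which encodes A-MYB and turns on genes of pachytene spermatocytes and their piRNA precursors, was at 48.1, 17.99 and 25.5 CPM in *Ccer1*+/+ replicates 1, 2 and 3 and at 42.2, 41.6 and 47.8 CPM in *Ccer1*-/- replicates 1, 2 and 3. Replicates 2 and 3 of *Ccer1*+/+ were low, and replicate 1 lay just above the highest *Ccer1*-/- library. Its log2 fold change was 0.52 (standard error 0.31, 95% interval -0.19 to 1.23, adjusted p = 0.786 from edgeR). *Mybl1* was the most variable of the regulators, with a 2.67-fold range between its highest and lowest library. *Tcfl5* (ENSMUSG00000038932, chr2:180621956-180642691), a basic helix-loop-helix factor of spermatocytes, was at 275, 230 and 283 CPM in *Ccer1*+/+ and 276, 285 and 324 CPM in *Ccer1*-/- replicates 1, 2 and 3. The genotypes overlapped, replicate 3 was the highest of each genotype, and the log2 fold change was 0.17 (standard error 0.13, adjusted p = 0.786 from edgeR).

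RFX2 is a winged-helix factor that binds the X-box of ciliary and flagellar genes. *Rfx2* (ENSMUSG00000024206, chr17:56775897-56831008) was at 521, 925 and 859 CPM in *Ccer1*+/+ replicates 1, 2 and 3 and at 551, 559 and 535 CPM in *Ccer1*-/- replicates 1, 2 and 3. The *Ccer1*-/- libraries lay close together and above *Ccer1*+/+ replicate 1, while *Ccer1*+/+ replicates 2 and 3 stood far above all others. Its log2 fold change was -0.49 (standard error 0.20, 95% interval -0.94 to -0.037, adjusted p = 0.786 from edgeR). *Sox30* (ENSMUSG00000040489, chr11:45979069-46017992), a SOX-family factor of late spermatocytes and round spermatids, was the steadiest regulator. It was at 213, 212 and 234 CPM in *Ccer1*+/+ and 223, 208 and 219 CPM in *Ccer1*-/- replicates 1, 2 and 3, a 1.12-fold range over all libraries. Its log2 fold change was -0.019 (95% interval -0.27 to 0.23, adjusted p = 0.963 from edgeR).

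The CREM axis comprises the factor, its activator and the motor that moves the activator. *Crem* (ENSMUSG00000063889, chr18:3266354-3337773) was at 215, 169 and 186 CPM in *Ccer1*+/+ and at 195, 200 and 206 CPM in *Ccer1*-/- replicates 1, 2 and 3, so the *Ccer1*-/- values fell inside the *Ccer1*+/+ range. Its log2 fold change was 0.078 (standard error 0.13, 95% interval -0.21 to 0.36, adjusted p = 0.866 from edgeR). The gene encodes activating and repressing isoforms from several promoters, and 1 count per gene does not separate them. *Fhl5* (ENSMUSG00000028259, chr4:25199907-25242852) was at 222, 179 and 184 CPM in *Ccer1*+/+ and at 235, 223 and 207 CPM in *Ccer1*-/- replicates 1, 2 and 3, with *Ccer1*+/+ replicate 1 among the *Ccer1*-/- values and a log2 fold change of 0.18 (standard error 0.13, adjusted p = 0.786 from edgeR). *Kif17* (ENSMUSG00000028758, chr4:138262251-138301973) was at 562, 786 and 725 CPM in *Ccer1*+/+ and at 544, 556 and 544 CPM in *Ccer1*-/- replicates 1, 2 and 3. The *Ccer1*-/- values were all lower than the *Ccer1*+/+ values, by little in the case of *Ccer1*+/+ replicate 1, as was so for 3.14% of all genes. The log2 fold change of *Kif17* was -0.34 (standard error 0.14, 95% interval -0.65 to -0.019, adjusted p = 0.786 from edgeR). In all 3 genes the *Ccer1*+/+ libraries were more widely spread than the *Ccer1*-/- libraries. The SD was 23.4 against 5.35 CPM for *Crem*, 23.1 against 13.7 CPM for *Fhl5* and 116 against 7.08 CPM for *Kif17* (n = 3). The same was so in each of the other regulators, from 217 against 12.2 CPM for *Rfx2* to 28.5 against 25.6 CPM for *Tcfl5*. Across genes, pairs of *Ccer1*+/+ libraries also differed more than pairs of *Ccer1*-/- libraries (chi-square per degree of freedom 14.3 to 74.05 and 2.71 to 10.98).

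Among the relatives of general factors, *Tbpl1* (ENSMUSG00000071359, chr10:22703877-22732666) encodes the TBP-like protein also known as TLF or TRF2, which mouse spermatids need for their chromocenter. It was at 263, 173 and 218 CPM in *Ccer1*+/+ and at 258, 261 and 325 CPM in *Ccer1*-/- replicates 1, 2 and 3. *Ccer1*+/+ replicate 1 fell among the *Ccer1*-/- values, and *Ccer1*-/- replicate 3 was the highest library. Its log2 fold change was 0.37 (standard error 0.17, 95% interval -0.024 to 0.76, adjusted p = 0.786 from edgeR). *Taf7l* (ENSMUSG00000009596, chrX:134460116-134476505), an X-linked relative of the TFIID subunit gene *Taf7*, was scarce, at 26.9, 14.8 and 18.6 CPM in *Ccer1*+/+ and 21.1, 22.1 and 23.4 CPM in *Ccer1*-/- replicates 1, 2 and 3. The log2 fold change was 0.14 with a wide 95% interval of -0.37 to 0.65 (adjusted p = 0.863 from edgeR). A copy of the gene, *Taf7l2*, was more abundant, at 113 to 170 CPM in *Ccer1*+/+ and 155 to 196 CPM in *Ccer1*-/-, and reads could be shared between both genes. *Gtf2a1l* (ENSMUSG00000024154, chr17:88665493-88715157), which encodes the large TFIIA subunit of germ cells, was at 329, 295 and 353 CPM in *Ccer1*+/+ and 317, 329 and 357 CPM in *Ccer1*-/- replicates 1, 2 and 3. The genotypes overlapped, the highest library of each genotype was replicate 3, and the log2 fold change was 0.039 (95% interval -0.23 to 0.31, adjusted p = 0.931 from edgeR). *Gtf2a1l* lies next to *Ston1*, with which transcripts reading through both genes are known, and *Ston1* was at 35.0 to 53.7 CPM over all libraries.

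Which *Ccer1*+/+ libraries entered the comparison decided its outcome. Without *Ccer1*+/+ replicate 1, edgeR called 3 of 10 regulators, beside 21.7% of all genes. Lower in *Ccer1*-/- were 2 (12.5% of all genes) and higher was 1 (9.21%). On the log2 scale *Rfx2* fell by 0.77 (adjusted p = 0.00319 from edgeR, standard error 0.069), *Kif17* fell by 0.54 (adjusted p = 0.00423, standard error 0.070) and *Mybl1* rose by 0.94 (adjusted p = 0.00819, standard error 0.16). *Tbpl1* was next, with a log2 fold change of 0.45 and an adjusted p of 0.0569 from edgeR. In that setting 6 of 10 regulators did not overlap between genotypes, beside 51% of all genes. *Fhl5*, *Taf7l*, *Tbpl1* and *Mybl1* lay higher in *Ccer1*-/-, as 24.8% of all genes did, and *Kif17* and *Rfx2* lower, as 26.2% did. Against *Ccer1*+/+ replicate 1 alone, a setting chosen after the values were seen, the fold changes of *Rfx2* (0.053) and *Mybl1* (-0.15) had the opposite sign and that of *Kif17* was -0.057. None of the 10 passed there, with the lone *Ccer1*+/+ library assumed to vary like the *Ccer1*-/- libraries (adjusted p = 0.973 to 0.999 from edgeR). In all, 7 of 10 regulators had *Ccer1*+/+ replicates 2 and 3 both outside the range of the other 4 libraries. *Kif17* and *Rfx2* lay above it, as 21.3% of all genes did, and *Crem*, *Fhl5*, *Taf7l*, *Tbpl1* and *Mybl1* below it, as 27.8% of all genes did.

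**Figure D2:**
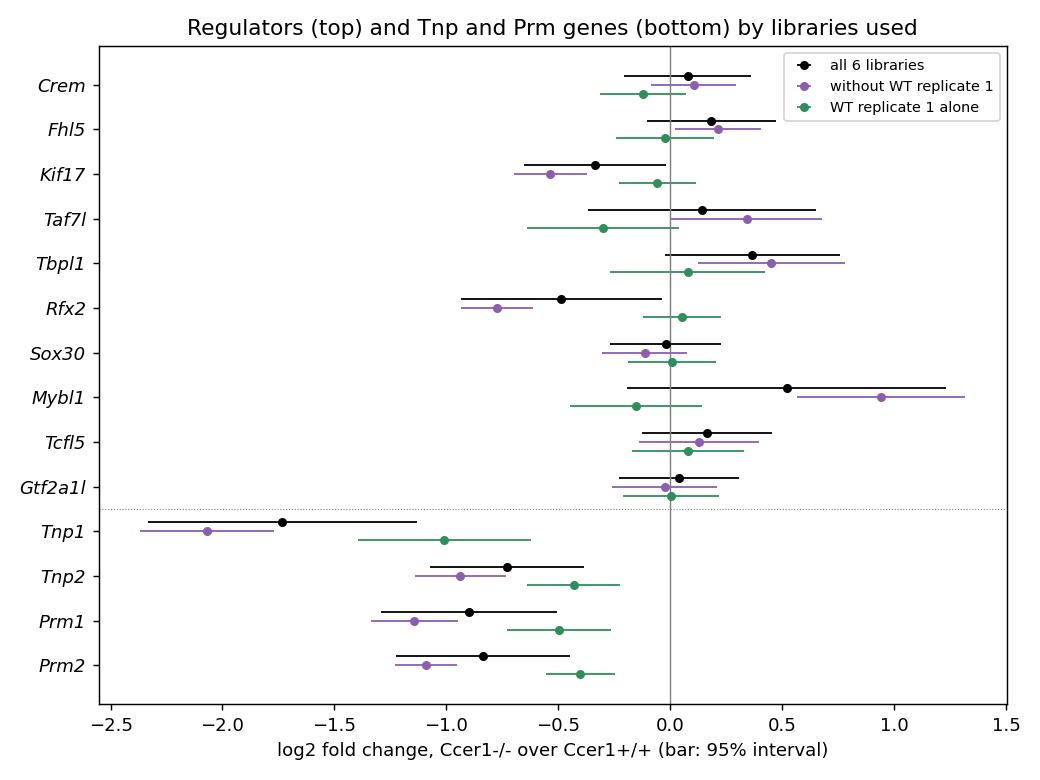
Log2 fold change of *Ccer1*-/- over *Ccer1*+/+ from edgeR with its 95% interval (horizontal axis) for the regulators and, under the dotted line, the *Tnp* and *Prm* genes, with all 6 libraries (black), without *Ccer1*+/+ replicate 1 (purple) and with *Ccer1*+/+ replicate 1 as the lone wild type (green). The 4 target genes stay negative in each setting, whereas *Rfx2* moves from -0.77 to 0.053 and *Mybl1* from 0.94 to -0.15.

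The direction in which a regulator departed followed the base composition of its transcript. The 5 regulators that were low in *Ccer1*+/+ replicates 2 and 3 had a GC content of 37.0% (*Mybl1*), 43.2% (*Crem*), 43.9% (*Taf7l*), 44.0% (*Tbpl1*) and 45% (*Fhl5*). The pair that were high there had 58.5% (*Rfx2*) and 60.1% (*Kif17*). *Gtf2a1l*, *Sox30* and *Tcfl5*, which stayed within the range of the other libraries in at least 1 of the replicates, had 50.3%, 54.2% and 56.3%. The log2 level of *Ccer1*+/+ replicate 1 exceeded the mean of replicates 2 and 3 by 1.13 for *Mybl1*, by 0.67 for *Taf7l* and by 0.43 for *Tbpl1*, whereas this difference was -0.43 for *Kif17* and -0.77 for *Rfx2*. Over the 14460 tested genes that have a GC value, the median of this difference was 0.54 below a GC content of 45%, 0.20 from 45 to 50%, -0.10 from 50 to 55% and -0.34 from 55% upwards. The sign of the difference in each of these 7 regulators was that of the median of genes in its GC range. Of the 3 others, *Sox30* (-0.067) had the sign of its range, whereas *Tcfl5* (0.11) and *Gtf2a1l* (0.027) had the opposite sign. When a smooth trend with GC content and transcript length was taken out of each library, chosen after the values were seen, the log2 fold change of *Rfx2* was -0.36 (standard error 0.15), that of *Kif17* was -0.21 (standard error 0.12) and that of *Mybl1* was 0.21 (standard error 0.15). The fold change of *Crem* was then -0.20 (standard error 0.12), against 0.078 with the trend left in. None of these 4 passed (adjusted p = 0.925 each from edgeR).

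**Figure D3:**
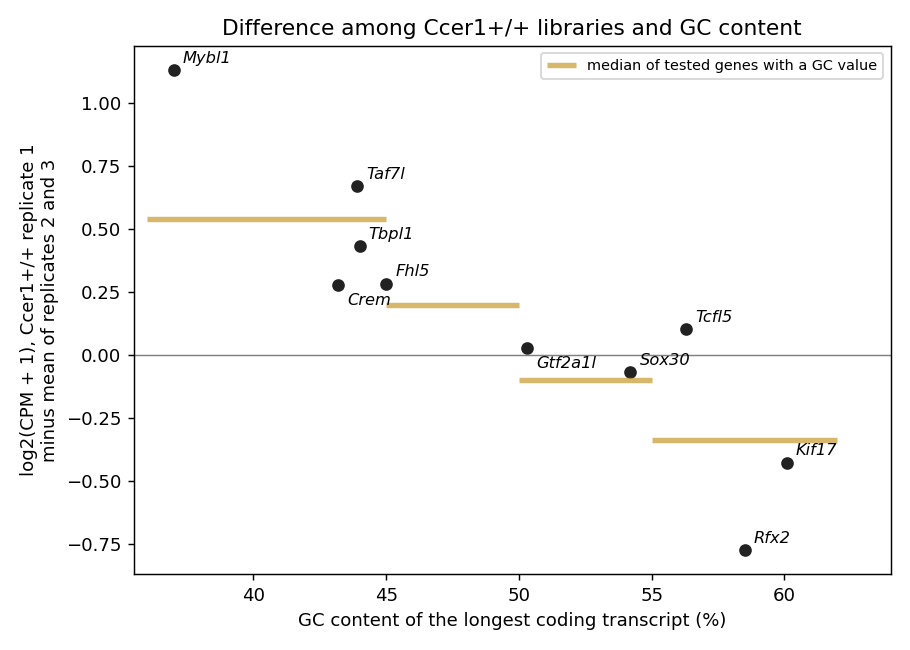
Log2(CPM + 1) of *Ccer1*+/+ replicate 1 minus the mean of *Ccer1*+/+ replicates 2 and 3 (vertical axis) against the GC content of the longest coding transcript in percent (horizontal axis), with a point for each regulator and a bar at the median of the 14460 tested genes with a GC value in each GC range. *Mybl1*, at 37.0% GC, lies highest at 1.13 and *Rfx2*, at 58.5%, lowest at -0.77.

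The genes that CREM is known to drive were set beside the regulators from the same fit. *Tnp1* was at 1266, 2763 and 2338 CPM in *Ccer1*+/+ and at 677, 705 and 533 CPM in *Ccer1*-/- replicates 1, 2 and 3, so that even *Ccer1*+/+ replicate 1 was above every *Ccer1*-/- library. Against *Ccer1*+/+ replicate 1 alone the log2 fold changes of *Tnp1*, *Tnp2*, *Prm1* and *Prm2* were -1.01, -0.43, -0.50 and -0.40, and without that library they were -2.07, -0.94, -1.14 and -1.09. With all 6 libraries they were -1.73, -0.73, -0.90 and -0.84, each with an adjusted p of 0.786 from edgeR, at unadjusted p values of 0.00012, 0.00102, 0.000607 and 0.000958, and the genotypes did not overlap in any of the 4. DESeq2, run on the same 6 libraries, gave an adjusted p of 1.5e-07 for *Tnp1*, 0.0142 for *Prm1*, 0.0477 for *Prm2* and 0.077 for *Tnp2*, so that 3 of the 4 passed. With the length and GC trend taken out, edgeR called *Tnp1* (adjusted p = 0.0265), and without *Ccer1*+/+ replicate 1 it called all 4 (adjusted p = 0.000801 to 0.00319). With all 6 libraries the 95% interval of *Crem* (-0.21 to 0.36) lay above those of all 4 genes. The nearest of these reached up to -0.39 (*Tnp2*). With the length and GC trend taken out, that of *Crem* (-0.4654 to 0.0595) overlapped those of *Tnp2* (-0.87 to -0.29) and *Prm2* (-0.92 to -0.42). It still lay above those of *Tnp1* and *Prm1*. Against *Ccer1*+/+ replicate 1 alone the log2 fold change of *Crem* was -0.12. The difference between genes was not tested. With all 6 libraries the regulator nearest to these 4 genes in fold change was *Rfx2* (-0.49). Against *Ccer1*+/+ replicate 1 alone *Rfx2* was at 0.053. Of 4 other spermatid genes that depend on CREM in mouse, *Odf1*, *Smcp*, *Ace* and *Camk4*, 0 passed in either direction at an adjusted p under 0.05 or an unadjusted one, and their median log2 fold change was -0.021. Without *Ccer1*+/+ replicate 1, edgeR called 2 of these 4 lower, beside 12.5% of all genes. *Odf1*, an outer dense fiber gene of the tail, was at 1436, 2269 and 1934 CPM in *Ccer1*+/+ and 1662, 1699 and 1547 CPM in *Ccer1*-/- replicates 1, 2 and 3 (log2 fold change -0.20, standard error 0.16). *Ace* and *Camk4* have germ cell promoters within genes that other cells use, which a count per gene does not separate.

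With all libraries, other genes of the same machinery gave 0 calls in either direction by edgeR in the 6 lists examined. Without *Ccer1*+/+ replicate 1 each list had calls, beside 9.21% of all genes higher and 12.5% lower. They were 1 lower of 11 in the CREB and FHL list, 1 lower of 11 in cAMP signaling, 1 higher of 4 in kinesin-2, 2 higher and 2 lower of 16 general factors, 3 lower of 10 RFX, SOX and MYB relatives, and 2 higher and 1 lower of 11 earlier regulators. Of 11 genes of the CREB family, its coactivators and the FHL family, 1 was at an unadjusted p under 0.05, the CREB coactivator gene *Crtc1*, with 15.4, 24.1 and 21.0 CPM in *Ccer1*+/+ and 13.5, 15.7 and 13.2 CPM in *Ccer1*-/- replicates 1, 2 and 3. Its genotypes overlapped at *Ccer1*+/+ replicate 1. Among 11 genes of cAMP signaling, *Prkar2b*, a regulatory subunit of protein kinase A, was at 5.69, 5.19 and 5.27 CPM in *Ccer1*+/+ and 6.82, 9.35 and 7.53 CPM in *Ccer1*-/- (log2 fold change 0.55, standard error 0.21). *Pde4a*, a cAMP phosphodiesterase, gave -0.32 on that scale (standard error 0.14). For *Prkar2b* the *Ccer1*-/- libraries all lay higher, as was so for 5.2% of all genes, and the *Ccer1*+/+ libraries lay close together. For *Pde4a* the *Ccer1*-/- libraries all lay lower, as was so for 3.14% of all genes. The gap was narrow there, with 100.4 CPM in *Ccer1*-/- replicate 2 and 100.6 CPM in *Ccer1*+/+ replicate 1. Both had an adjusted p of 0.786 from edgeR. The 4 kinesin-2 genes had a median of 0.20. The 16 tested genes of general factors had one of 0.23, with 13 positive and 3 negative fold changes (8390 and 6749 over all genes tested). The factor gene *Gtf2b* was the smallest in p among these general factors (0.35, standard error 0.17), and its *Ccer1*-/- libraries also all lay higher. Of 10 tested RFX, SOX and MYB relatives *Rfx1* was at an unadjusted p under 0.05. It was at 173, 308 and 271 CPM in *Ccer1*+/+ and 162, 180 and 168 CPM in *Ccer1*-/- replicates 1, 2 and 3, with replicates 2 and 3 of *Ccer1*+/+ highest as in *Rfx2*, and its transcript has 60.8% GC. The 11 regulators of earlier germ cells had 0 at an unadjusted p under 0.05 and a median of 0.082. Among stage markers the medians were 0.038 in spermatogonia, 0.13 in spermatocytes, -0.068 in round spermatids and 0.026 in elongating spermatids, with 0 called in each. Without *Ccer1*+/+ replicate 1 there were 0 calls among spermatogonial markers, 4 higher and 2 lower of 12 among spermatocyte markers, 1 higher and 3 lower of 12 among round spermatid markers, and 2 higher and 2 lower of 12 among elongating spermatid markers.

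Levels of different genes were compared as CPM per kilobase of the longest coding transcript. In *Ccer1*+/+ testes the order was *Rfx2* at 229 ± 64.6, *Gtf2a1l* at 201 ± 17.9, *Kif17* at 200.1 ± 33.6, *Fhl5* at 167 ± 19.7, *Tcfl5* at 118 ± 12.8, *Tbpl1* at 75.9 ± 15.6, *Sox30* at 73.3 ± 4.14, *Crem* at 64.8 ± 7.99, *Taf7l* at 10.4 ± 3.22 and *Mybl1* at 6.13 ± 3.15 CPM per kilobase (SD, n = 3). The libraries of *Rfx2*, *Gtf2a1l*, *Kif17* and *Fhl5* overlapped from each gene to the next in this order, and so did those of *Tbpl1*, *Sox30* and *Crem* and those of *Taf7l* and *Mybl1*. *Fhl5* and *Tcfl5*, *Tcfl5* and *Tbpl1*, and *Crem* and *Taf7l* did not overlap. In *Ccer1*-/- testes *Gtf2a1l* came first at 206 ± 12.7, followed by *Fhl5* at 189 ± 11.7, *Rfx2* at 164 ± 3.63 and *Kif17* at 159 ± 2.05 CPM per kilobase (SD, n = 3), and the order of the 6 others was the same as in *Ccer1*+/+. There *Fhl5* lay above *Rfx2* in every library, while *Rfx2* and *Kif17* overlapped. *Taf7l* and *Mybl1* were thus the scarcest of these transcripts in both genotypes. With the median length of the coding transcripts in place of the longest, chosen after the values were seen, *Crem* moved from rank 8 to rank 5 in *Ccer1*+/+, at 170.1 CPM per kilobase, since its 36 coding transcripts have a median length of 1116 bases and the longest has 2931. The first 3 ranks were then *Kif17* at 304, *Gtf2a1l* at 275 and *Rfx2* at 232 CPM per kilobase, and *Tbpl1* at 166 lay above *Tcfl5* at 119, so the order of these genes depends on the transcript length used.

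**Figure D4:**
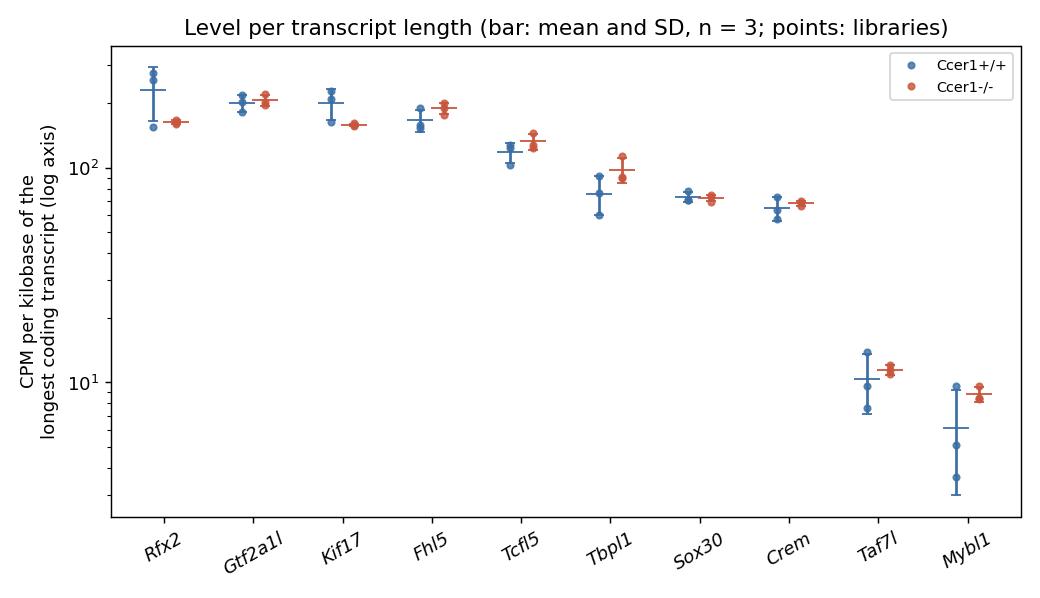
CPM per kilobase of the longest coding transcript (vertical log axis) of each regulator, ordered by the *Ccer1*+/+ mean, with points for libraries and bars for mean and SD (n = 3 per genotype, *Ccer1*+/+ blue and *Ccer1*-/- red). *Taf7l* and *Mybl1* lie well below the others, at 10.4 and 6.13 in *Ccer1*+/+.

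For 8 of the regulators a relative with a wider expression or another role was paired with it. The log2 ratio of both levels per kilobase was taken within each library, which removes the scaling between libraries. It does not remove a trend with GC content where the pair differ in it. GC content was alike in *Rfx2* and *Rfx1* (58.5 and 60.8%). It was not in *Kif17* and *Kif3a* (60.1 and 43.2%) or in *Mybl1* and *Mybl2* (37.0 and 56.3%). The part of GC content in the ratios was not tested. The regulator exceeded its relative in every library for all 8 pairs. *Crem* exceeded *Creb1*, the CREB gene of most cells, by 5.81, 5.73 and 5.84 in *Ccer1*+/+ and by 5.67, 5.70 and 5.56 in *Ccer1*-/- replicates 1, 2 and 3. All *Ccer1*-/- ratios were lower, and the difference was -0.15 (p = 0.10 in an exact two-sided permutation test, which cannot go lower with 3 against 3, and adjusted p = 0.40 over 8 pairs). *Tbpl1* exceeded *Tbp* by 3.07, 2.84 and 2.91 in *Ccer1*+/+ and by 3.13, 3.16 and 3.21 in *Ccer1*-/- replicates 1, 2 and 3, so that all *Ccer1*-/- ratios were higher, by 0.23 on average (exact permutation p = 0.10, adjusted p = 0.40). The longest *Tbp* model is unusually long, and with median transcript lengths the mean ratio in *Ccer1*+/+ was 0.23 in place of 2.94. The mean of *Crem* over *Creb1* was then 5.00 in place of 5.79, that of *Kif17* over *Kif3a* 2.88 in place of 3.53 and that of *Taf7l* over *Taf7* 0.59 in place of 0.86. *Rfx2* and *Rfx1* moved together, with a ratio of 1.93 ± 0.044 in *Ccer1*+/+ and 2.01 ± 0.069 in *Ccer1*-/- (SD, n = 3, exact permutation p = 0.20, adjusted p = 0.48), although each gene differed widely between the *Ccer1*+/+ libraries. *Gtf2a1l* over *Gtf2a1* gave 5.16 ± 0.27 and 5.02 ± 0.065 (SD, n = 3, exact permutation p = 0.40, adjusted p = 0.533), *Taf7l* over *Taf7* gave 0.86 ± 0.19 and 0.93 ± 0.036 (SD, n = 3, exact permutation p = 0.70, adjusted p = 0.80), and *Kif17* over *Kif3a* gave 3.53 ± 0.47 and 3.03 ± 0.16 (SD, n = 3, exact permutation p = 0.30, adjusted p = 0.48). *Mybl1* over *Mybl2* was 1.37, 0.21 and 0.40 in *Ccer1*+/+ and 1.50, 1.25 and 1.28 in *Ccer1*-/- replicates 1, 2 and 3 (exact permutation p = 0.30, adjusted p = 0.48). Those 4 ratios overlapped between genotypes. *Fhl5* over *Fhl2* gave 5.65 ± 1.00 and 5.73 ± 0.86 (SD, n = 3, exact permutation p = 0.90, adjusted p = 0.90). *Fhl2* was at only 2.61 to 10.1 CPM and lowest in replicate 3 of each genotype, where the markers of the tubule wall were also lowest (5 of 5 markers in both genotypes). The part of these cells in that ratio was not tested.

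**Figure D5:**
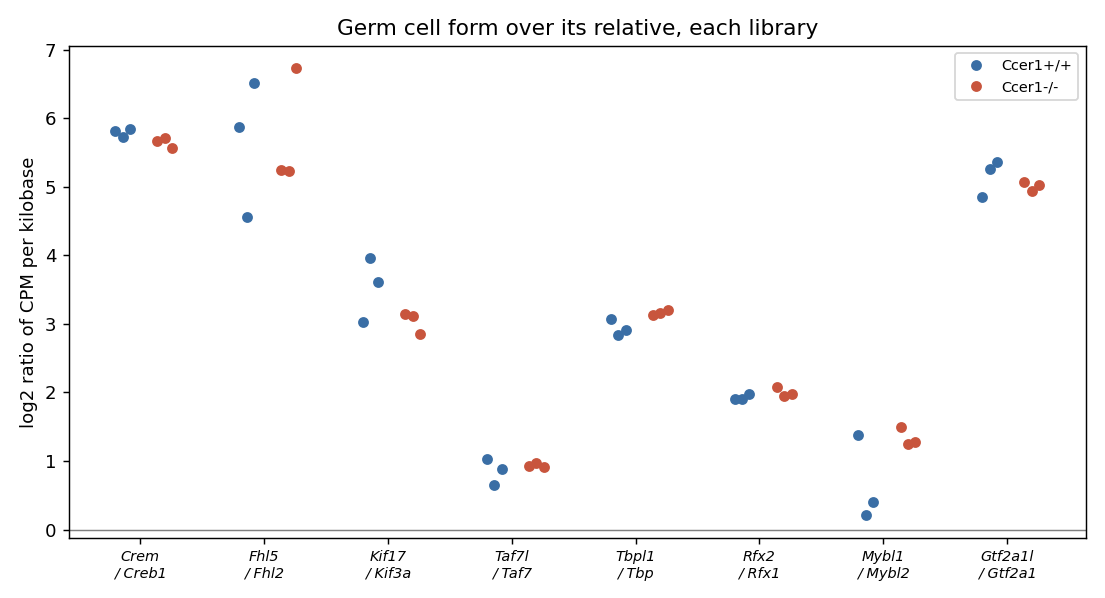
Log2 ratio of CPM per kilobase of each regulator to its relative (vertical axis) in the 3 *Ccer1*+/+ libraries (blue) and the 3 *Ccer1*-/- libraries (red), in the order of the replicates. All points lie above 0, and the genotypes separate only for *Crem* over *Creb1* and *Tbpl1* over *Tbp*.

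The genes whose profile over the 6 libraries was most like that of *Crem* were *Ate1*, *1700030J22Rik*, *Nfatc2ip*, *Rasal2* and *Usp48*, among 8958 genes of at least 10 CPM. Their centered log2 levels differed from those of *Crem* by a root mean square of 0.015 to 0.020. *Ate1*, an arginyltransferase gene, was at 61.0, 47.8 and 53.0 CPM in *Ccer1*+/+ and 55.7, 56.0 and 57.2 CPM in *Ccer1*-/- replicates 1, 2 and 3. All 5 were highest in *Ccer1*+/+ replicate 1 and lowest in replicate 2, as *Crem* was.

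Promoter windows of RefSeq (build GRCm38.p6, 250 bases before to 50 after a gene's start) were matched for 8 of the 10 regulators, all but *Crem* and *Mybl1*. They were searched on both strands for the full cAMP response element TGACGTCA that CREM binds, its core TGACG, the X-box core GTTGCC of RFX factors, the TATA box TATAAA, the E-box CACGTG, the SOX core ACAAT and the MYB core AACNG. The windows below show every match to the full element, the X-box core and the E-box, the motifs found in the fewest promoters, and the response element core of *Rfx2*. *Kif17* and *Rfx2* held both the response element core and the X-box core, as 2.65% of all windows did. Capitals mark the match, and each run is read 5′ to 3′ along the gene.
Kif17, response element, chr4:138262154-138262183, plus strand: attccgtcctgTGACGTCAcggaggttgcc
Kif17, X-box core, chr4:138262166-138262195, plus strand: gacgtcacggagGTTGCCcagcaacggcga
Rfx2, response element core, chr17:56831215-56831244, minus strand: ccccttcacctcTGACGggcactatgaaag
Rfx2, X-box core, chr17:56831107-56831136, minus strand: agcttggtaaccGTTGCCgggcgcaacgcc
Gtf2a1l, X-box core, chr17:88668460-88668489, plus strand: ttcaaagatgagGTTGCCccatcgacctga
Taf7l, E-box, chrX:134476522-134476551, minus strand: accctcttatacCACGTGacagaactcgcc
The full element began 86 bases before the start of *Kif17* and the X-box core 73 bases before it so the windows printed for them overlap. The full element holds the core on both strands. The start used for *Gtf2a1l* lies inside the annotated span of the gene (chr17:88665493-88715157), and the other windows printed lie outside the spans of their genes. Of all 32817 promoter windows, 1.79% held the full element, 20.8% its core, 12.5% the X-box core, 7.15% the E-box and 13.6% the TATA box. These shares are of single windows. A regulator or target was counted if any of its windows held the match, and *Fhl5* had several windows. *Taf7l* held the TATA box and the E-box. Of the 4 target genes, 0 held the full element and 0 its core in these windows. Only these exact letters were searched, so a variant form of the element would not be found. *Prm2* held the TATA box, *Prm1* the MYB core, and *Tnp1*, *Tnp2* and *Prm2* the SOX core. The MYB core was in 8 of 8 regulators, but also in 80.3% of all windows, and the SOX core in 3 of 8 (*Fhl5*, *Sox30* and *Taf7l*) and in 31.0% of all windows. A match describes the letters and does not show that a factor binds there.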

How the data were processed

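The deposited files give estimated counts per Ensembl gene for 22259 genes in each of 6 testis libraries, made by the authors without scaling between libraries. Per the submitters' processing notes the build was GRCm38 (mm10), and the tools included StringTie 1.3.1, HISAT2, fastp 0.18.0 and Bowtie2 2.2.8. The counting program and its strand setting are not given in the sources used here. Symbols were found for 20312 genes. Counts were rounded, filtered with filterByExpr (minimum count 10, minimum total 15, leaving 15139 genes, among them all 10 regulators), scaled by TMM and tested in R 4.3.3 with edgeR 4.0.16 (robust quasi-likelihood fit, two-sided, Benjamini-Hochberg over all genes tested). A standard error is the size of the log2 fold change divided by the root of its F statistic. Log levels use log2(CPM + 1), and ratios within a library use no added constant. Transcript length and GC content come from GENCODE M1 coding transcripts (NCBIM37), and promoters and positions from GRCm38.p6. Alternatives were DESeq2 1.42.0 and its size factors, upper quartile factors, other filters, a replicate block, each library left out, and, chosen after seeing the data, a curve on GC content and length removed (splines with 5 degrees of freedom each), *Ccer1*+/+ replicate 1 alone, and median transcript lengths. The regulators and lists were chosen with earlier results of these data known. Named are the 10 regulators, their paired relatives, the *Tnp* and *Prm* genes, *Ccer1*, up to 2 genes of a list with the smallest p, and the 5 genes most like *Crem*. *Taf7l2* and *Ston1* were added after values were seen. *Taf9* matched 2 identifiers and was left out. The fit was tested on simulated counts. Within each genotype all pairs of libraries differed by more than sampling noise. The 5 Hi-C samples were not analysed here.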

Additional observations from a re-analysis of the deposited data

How the results depend on the processing

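The count of genes called by edgeR was 1 with all libraries. It was 5 with the DESeq2 test, 179 at an unadjusted p under 0.05 with a fold change over 1.5, 2 with the curve on length and GC content removed, and 1 to 3337 with 1 library left out. The count of regulators called was 0, and 0 to 3 with 1 library left out (3 without *Ccer1*+/+ replicate 1). The median log2 fold change of the regulators was 0.11, -0.062 with the curve removed and -0.062 to 0.12 with 1 library left out, and was negative without *Ccer1*+/+ replicate 2. Non-overlapping regulators numbered 1 with all libraries (8.34% of all genes) and 1 to 6 with 1 library left out. The 6 were without *Ccer1*+/+ replicate 1, where 51% of all genes did not overlap. With the curve removed they numbered 2, and the share of all genes was not taken there. *Mybl1* lay higher in *Ccer1*-/- and *Crem* barely lower, at centered log2 levels of -0.046 in *Ccer1*-/- replicate 2 and -0.045 in *Ccer1*+/+ replicate 1. *Kif17* overlapped in that setting. The cause of these moves was not tested. Small fold changes turned their sign. For *Gtf2a1l* this was so with DESeq2's size factors (-0.0013), the DESeq2 test (-0.0013), at least 10 counts in every library (-0.011), the curve (-0.061) and with 1 library left out (-0.077 to 0.054). For *Crem* it was so with the curve (-0.20), against *Ccer1*+/+ replicate 1 alone (-0.12) and with 1 library left out (-0.047 to 0.11). *Taf7l* gave -0.10 with the curve, -0.30 against that library alone and -0.081 to 0.34 with 1 library left out, *Fhl5* gave -0.063 and -0.022, and *Sox30* gave 0.0019 and 0.0064. *Rfx2* gave 0.053 and *Mybl1* -0.15 against that library alone. *Kif17*, *Tbpl1* and *Tcfl5* kept their sign in all 14 alternatives. Of the ratios, *Fhl5* over *Fhl2* differed by -0.46 (without *Ccer1*+/+ replicate 2) to 0.52 between genotypes with 1 library left out, -0.41 without *Ccer1*-/- replicate 3, and *Taf7l* over *Taf7* by -0.022 (without *Ccer1*+/+ replicate 2) to 0.16. Same-numbered libraries deviated from their genotype means with correlations of 0.070, 0.43 and 0.51, which is not over 0.1 in every pair, and the numbers were read as names only. A low value in 1 pair does not show that such libraries share nothing, and the main test takes no account of any shared variation. With a replicate block edgeR called 1 gene and 0 regulators, and the median was 0.13. There 4 regulators in place of 2 had an unadjusted p under 0.05. The share of all genes at that threshold was not taken with the block, so the rise cannot be read as particular to the regulators.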
